A study of Homo sapiens with 4 samples.

Results

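Detection on the arrays split 19 genes between siPATZ1-treated and siCTRL-treated HepG2 cells. For each gene, 1 probe was read as detected on both siPATZ1 arrays and as undetected on both siCTRL arrays. Other probes were present for 6 of the genes. The genes are 19 of the 20045 genes with a probe assigned to 1 symbol. The rule asked for a detection p-value below 0.01 on both siPATZ1 arrays and of 0.05 or more on both siCTRL arrays. It also asked that the symbol not begin with ZNF, and that no other probe of the gene be detected, at a detection p-value below 0.01, on either siCTRL array. The genes were therefore chosen by the same values that are described here, so that their levels and differences are a description and carry no test.

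The siPATZ1 cells were labelled HepG2, a human liver cancer line, and were reverse transfected with 60 pmol of siRNA against PATZ1 (siPATZ1, 2 arrays). They were set against HepG2 cells that received the same amount of a scrambled siRNA (siCTRL, 2 arrays), and both kinds of cells were collected at 48 h. Total RNA was hybridised to Illumina HumanHT-12 v4 BeadChips, each of which reports the brightness of 47323 probes. Whether duplicate arrays stem from independent transfections is not stated in the labels. The p-values below therefore cover array-to-array spread only, and that spread may be purely technical. The knockdown could not be checked on these arrays, because the lowest detection p-value of the 3 PATZ1 probes was 0.0649. The study itself reported lower PATZ1 mRNA by qRT-PCR and lower PATZ1 protein by western blot in siPATZ1-treated HepG2 cells. Defining liver transcripts were also largely absent. Of 21 genes for secreted liver proteins, 20 had no detection p-value below 0.01 on any array, AFP among them, and ALB was the 1 detected on all 4 arrays. The detected ALB probe was dim, with 165 and 194 units in siPATZ1-treated cells, against 202 and 157 units in siCTRL-treated cells. Another ALB probe was undetected on all 4 arrays. Among 36 other hepatocyte genes with a probe, 31 had no probe with a detection p-value below 0.01 on either siCTRL array. The cell line is named from the labels, and these liver transcripts did not bear the name out. The reason was not tested.

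PATZ1, also called MAZR, is a zinc finger transcription factor with a POZ/BTB domain that binds G-rich DNA and can repress or activate its targets. On a BeadChip, a probe is called detected by ranking its brightness against negative control probes that match no human transcript. A gene near that limit is one whose transcript is scarce, or one whose probe binds poorly, and the arrays do not tell these apart.

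The 19 genes have varied known roles. ELK4, TFAP4 and ZSCAN29 encode DNA-binding proteins, RIOX1 a nucleolar and nuclear oxygenase, and SAMD4A an RNA-binding repressor of translation. SMDT1, GDAP1 and RCC1L encode mitochondrial proteins. IGF1R, LRRC8C, KCNIP3, OSBPL5, TLCD4 and HYAL3 encode proteins of membranes, signalling or matrix turnover. SNORA12, SNORD125 and MORC2-AS1 are non-coding RNAs, and KIAA1958 and CCDC89 have no role stated here. Many of these genes are known to be used in most tissues. KCNIP3 and GDAP1 are best known from neurons, and IGF1R is widespread but low in adult hepatocytes.

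All 19 genes lay close to the detection limit. Their unscaled signals ran from 138 to 199 fluorescence units on the siPATZ1 arrays, against 80.9 to 111 units on the siCTRL arrays. The lowest signal called detected was 133 and 147 units on the siPATZ1 arrays and 144 and 142 units on the siCTRL arrays, and the median signal of undetected probes was 83.3 and 88.6 units on the siPATZ1 arrays and 82.8 and 83.4 units on the siCTRL arrays. The brightest of the 19 genes was dimmer than most detected probes, with 22.9% of the detected probes below it on siPATZ1 array 1 and 21.4% on siPATZ1 array 2. Each detection p-value is a whole number of 770 steps, which is read here as the number of negative controls at least as bright as the probe. Between 1 and 7 controls were as bright as each gene on the siPATZ1 arrays, against between 39 and 302 on the siCTRL arrays. The rule itself allows at most 7 and at least 39.

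**Figure D1:**
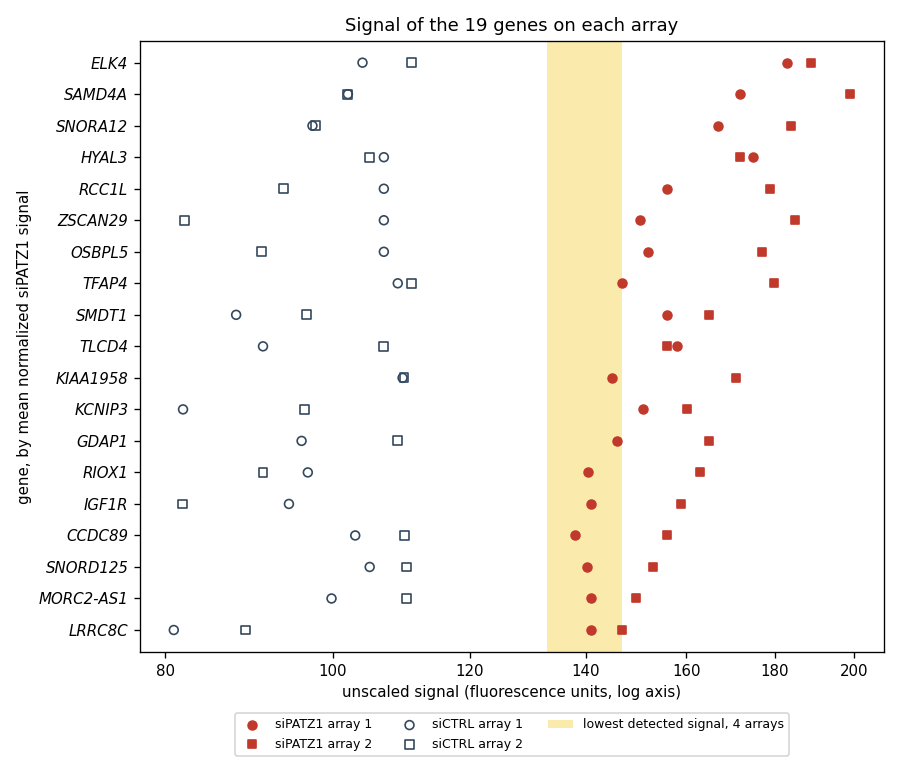
Unscaled signal in fluorescence units (log axis) of the 19 genes, ordered by mean normalized siPATZ1 signal. Filled points are the 2 siPATZ1 arrays, open points the 2 siCTRL arrays, and the shaded band spans the lowest detected signal of the 4 arrays, 133 to 147 units; every siPATZ1 point lies at 138 units or above and every siCTRL point at 111 units or below.

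Among the DNA-binding proteins, ELK4 was the brightest of the 19 genes. ELK4 is an ETS-domain ternary complex factor that acts with the serum response factor SRF on growth factor-responsive genes. Its signals were 183 and 189 units in siPATZ1-treated cells, against 104 and 111 units in siCTRL-treated cells. TFAP4, a basic helix-loop-helix factor also called AP-4, had 147 and 179.8 units in siPATZ1-treated cells, against 109 and 111 units in siCTRL-treated cells. ZSCAN29, a SCAN-domain zinc finger protein, had 150.4 and 185 units in siPATZ1-treated cells, against 107 and 82.1 units in siCTRL-treated cells. The siPATZ1 and siCTRL arrays did not overlap for these genes, as the rule requires, while the unscaled duplicates of ZSCAN29 were the farthest apart of these 3 genes in both groups.

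The regulators outside DNA binding showed the same arrangement. SAMD4A, a human relative of the Drosophila translational repressor Smaug, had 172 and 199 units in siPATZ1-treated cells, against 102 and 102 units in siCTRL-treated cells, and siPATZ1 array 2 gave the highest signal of all 19 genes. RIOX1, also called NO66, is a histone and ribosomal protein oxygenase, and had 140.5 and 163 units in siPATZ1-treated cells, against 96.7 and 91.1 units in siCTRL-treated cells. In RefSeq, RIOX1 lies within ACOT1, an acyl-CoA thioesterase gene, and within HEATR4. The tested ACOT1 probe was detected on all 4 arrays with a log2 difference of 0.13 (SE 0.21, limma adjusted p = 0.71). A second ACOT1 probe and the HEATR4 probe were undetected on all 4 arrays, with log2 differences of -0.17 and -0.03.

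Of the mitochondrial proteins, SMDT1 had the lowest mean siCTRL signal. SMDT1, or EMRE, is the subunit that the calcium uniporter of animal mitochondria needs in order to conduct. It had 156 and 165 units in siPATZ1-treated cells, against 87.9 and 96.5 units in siCTRL-treated cells. RCC1L, an RCC1-like protein of the mitochondrial matrix linked to assembly of the mitochondrial ribosome, had 156 and 179 units in siPATZ1-treated cells, against 107 and 93.6 units in siCTRL-treated cells. GDAP1 is an outer mitochondrial membrane protein whose mutations cause Charcot-Marie-Tooth neuropathy. Its signals were 146 and 165 units in siPATZ1-treated cells, against 95.9 and 109 units in siCTRL-treated cells, so that 1 siCTRL array was close to the limit set for undetected probes.

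IGF1R, the receptor tyrosine kinase for insulin-like growth factors, had 141 and 159 units in siPATZ1-treated cells, against 94.3 and 81.8 units in siCTRL-treated cells. IRAIN, a non-coding RNA that overlaps IGF1R, had 156 and 139.9 units in siPATZ1-treated cells, against 132 and 120.3 units in siCTRL-treated cells. LRRC8C is a subunit of volume-regulated anion channels, which form with the obligatory subunit LRRC8A. It had 141 and 147 units in siPATZ1-treated cells, against 80.9 and 89.0 units in siCTRL-treated cells, and was the dimmest of the 19 genes in both groups by mean normalized signal. KCNIP3, a calcium sensor also called DREAM or calsenilin that modulates potassium channels and represses transcription, had 151 and 160.2 units in siPATZ1-treated cells, against 81.9 and 96.3 units in siCTRL-treated cells. IGF1R, LRRC8C and KCNIP3 were the dimmest of the 19 genes in siCTRL-treated cells by mean normalized signal, and at least 100 negative controls were as bright as each of them on each siCTRL array.

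OSBPL5, or ORP5, transfers lipids where the endoplasmic reticulum touches the plasma membrane, and had 152 and 177 units in siPATZ1-treated cells, against 107 and 90.9 units in siCTRL-treated cells. TLCD4 carries the TLC domain found in several membrane proteins of lipid metabolism, and had 158 and 156 units in siPATZ1-treated cells, against 91.1 and 107 units in siCTRL-treated cells. HYAL3, a member of the hyaluronidase family, had 175 and 172 units in siPATZ1-treated cells, against 107 and 105 units in siCTRL-treated cells. TLCD4 and HYAL3 were the only 2 of the 19 genes with a lower unscaled signal on siPATZ1 array 2 than on siPATZ1 array 1. The other 17 were higher on array 2, where the mean signal of all probes was 555 units, against 523 units on array 1, and after quantile normalisation, which equalises the brightness of the arrays, 15 of the 19 were still higher on array 2.

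The non-coding RNAs included both classes of small nucleolar RNA. SNORA12, of the H/ACA class that guides pseudouridylation, had 167 and 184 units in siPATZ1-treated cells, against 97.3 and 97.7 units in siCTRL-treated cells. SNORD125, of the C/D class that guides ribose methylation, had 140.2 and 153 units in siPATZ1-treated cells, against 105 and 110.3 units in siCTRL-treated cells. In RefSeq, SNORA12 lies within CWF19L1 and SNORD125 within AP1B1, and such RNAs are known to be cut from introns. The host genes were bright on all 4 arrays. CWF19L1 had a log2 difference of 0.15 (SE 0.13, limma adjusted p = 0.474, n = 2 arrays per group) and AP1B1 one of 0.10 (SE 0.14, adjusted p = 0.691), neither of which passed the test. MORC2-AS1, a long non-coding RNA that overlaps MORC2, had 141 and 149.6 units in siPATZ1-treated cells, against 99.8 and 110.3 units in siCTRL-treated cells. MORC2 itself had 217 and 278 units in siPATZ1-treated cells, against 234 and 259 units in siCTRL-treated cells, so that its groups overlapped.

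KIAA1958 had 145 and 171 units in siPATZ1-treated cells, against 109.7 and 109.9 units in siCTRL-treated cells. CCDC89, a coiled-coil protein, had 138 and 156 units in siPATZ1-treated cells, against 103 and 110.0 units in siCTRL-treated cells, and held the lowest siPATZ1 signal of the 19 genes. Both belonged to a set of 6 genes with siCTRL array 2 exactly at the last step that counts as undetected, 39 controls, together with ELK4, TFAP4, SNORD125 and MORC2-AS1. At the other limit, 7 of the 19 genes reached the highest siPATZ1 value allowed, 7 controls, on at least 1 array.

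The genes next to each limit are given with ties taken in order of name. Just inside the siPATZ1 limit were CCDC89, IGF1R and KIAA1958, each with a highest siPATZ1 detection p-value of 0.00909, and just outside it were CLIP2, EEA1 and HIP1R at 0.0104. EEA1, an early endosome tether, had 137 and 146 units in siPATZ1-treated cells, against 88.4 and 97.6 units in siCTRL-treated cells. Just inside the siCTRL limit were CCDC89, ELK4 and KIAA1958, with a lowest siCTRL detection p-value of 0.0506, and just outside it were MGAT4A, PARD3 and QTGAL at 0.0481. MGAT4A, an N-glycan branching enzyme, had 202 and 203 units in siPATZ1-treated cells, against 110.1 and 104 units in siCTRL-treated cells. It was thus brighter in siPATZ1-treated cells than any of the 19 genes and failed the rule by 1 siCTRL array.

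After background correction and quantile normalisation, the measured signals of the 19 genes had a median log2 difference of 1.19 between siPATZ1 and siCTRL arrays, with a range from 0.70 to 1.41. The median was 0.73 with a larger offset of 50, 0.64 with no background correction and 0.62 in the deposited scaled intensities. The measured difference reached 1.4-fold, the threshold the study applied, for 19 of the 19 genes, and for 14 with no background correction or in the scaled intensities. Because the siCTRL side of each difference was not detected, these values describe brightness and are not fold changes of transcripts. Over the 15105 probes with 1 gene that were undetected on both siCTRL arrays, the median log2 difference was 0.01 and 1.84% were at least 1.4-fold higher. The rule used this contrast, and nothing is read from the gap between these shares. The 14199 probes undetected on all 4 arrays had a median log2 difference of 0.00 (SD 0.14 over probes) and a highest value of 0.71.

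A transcript undetected in siCTRL-treated cells has only an upper limit there, so a fold change is given as a bound, and no bound reached 1.4-fold. The bound sets the mean siPATZ1 signal against the lowest detected signal of each siCTRL array, or the probe's own siCTRL signal where that is higher. For the probe that met the rule, the bound was 1.36-fold for SAMD4A and ELK4, 1.25-fold for SNORA12, 1.23-fold for HYAL3 and 1.15-fold for RCC1L. These bounds come from 1 normalisation and allow neither for the spread of the arrays nor for the choice of the probe by its brightness. Averaged over all probes of ELK4, the log2 difference was 0.38, and its other probes ranged from -0.34 to 0.90. For 8 further genes the bound lay between 1.02-fold and 1.14-fold. For RIOX1, IGF1R, CCDC89, SNORD125, MORC2-AS1 and LRRC8C no fold is given. Their mean normalized siPATZ1 signals, 6.18 to 6.31 on the log2 scale, were below the lowest detected values of the siCTRL arrays, 6.37 and 6.33.

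**Figure D2:**
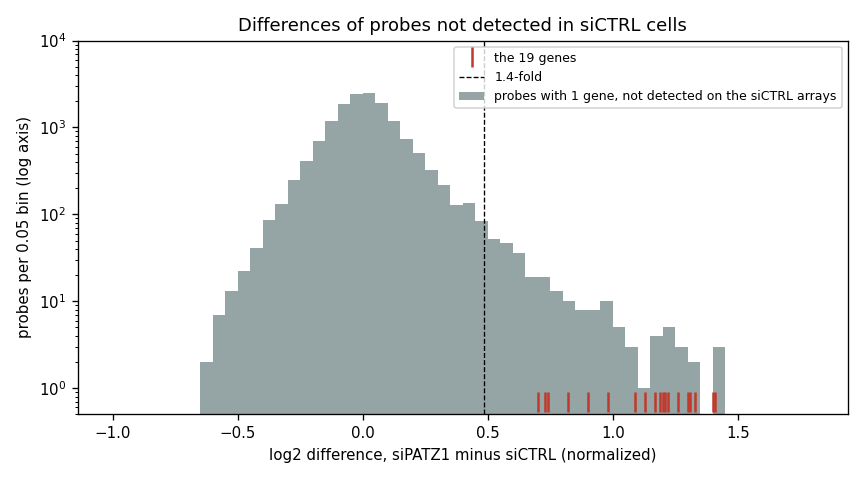
Log2 difference between the siPATZ1 and siCTRL means after normalisation (horizontal axis) for the 15105 probes with 1 gene that were undetected on both siCTRL arrays, as probes per bin (log axis). Red ticks are the 19 genes, which lie from 0.70 to 1.41, and the dashed line is 1.4-fold.

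Both detection limits together were met by 35 of the 30112 probes with 1 gene, or 0.116%. The opposite pattern, detected on both siCTRL arrays and undetected on both siPATZ1 arrays, was met by 7 probes of 7 genes, or 0.0232%. More probes were detected in siPATZ1-treated cells, 15980 and 15236 on the siPATZ1 arrays against 14222 and 14384 on the siCTRL arrays, and the part of this difference in the counts of 35 and 7 was not tested.

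Of the 35 probes, 16 were set aside by the conditions on other probes and on ZNF symbols. For 14 genes, 1 of them ZNF629, another probe was detected on a siCTRL array, and ZNF616 was left out by its symbol alone. The log2 difference of the brightest such other probe ranged from -0.76 for MSI2 to 1.47 for NFKBIB. PPARG, the adipocyte nuclear receptor, shows the case. The probe that met both limits had 157 and 148 units in siPATZ1-treated cells, against 94.5 and 99.5 units in siCTRL-treated cells, while its brightest probe had 736 and 739.9 units in siPATZ1-treated cells, against 487 and 373 units in siCTRL-treated cells. PPARG transcripts were therefore detected in both kinds of cells.

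Among the 19 genes, 13 had only 1 probe and 6 had others, 12 probes in all. The other probes differed widely, with log2 differences from -0.34 to 1.09 and a median of 0.12, and 3 of the 12 were detected on both siPATZ1 arrays. The measured difference reached 1.4-fold for 5 of the 12, against 2.69% of the 14909 probes whose gene had no probe detected on a siCTRL array. These probes did not choose the genes as detected in siPATZ1-treated cells, although the rule kept them below detection on the siCTRL arrays. The 12 probes belong to 6 genes that were chosen on the same arrays, and probes of 1 gene are not replicates. Nothing is therefore read from the gap between these shares. A second RCC1L probe had 182 and 218 units in siPATZ1-treated cells, against 128 and 115 units in siCTRL-treated cells. The second OSBPL5 probe had 150.3 and 192 units in siPATZ1-treated cells, against 102 and 116 units in siCTRL-treated cells.

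ELK4 had 4 further probes. One had 147 and 168 units in siPATZ1-treated cells, against 112 and 101 units in siCTRL-treated cells, and another had 136 and 114 units in siPATZ1-treated cells, against 126 and 135 units in siCTRL-treated cells. The remaining ELK4 probes had log2 differences of -0.08 and 0.14. A GDAP1 probe with no detection p-value below 0.01 had 118 and 118 units in siPATZ1-treated cells, against 72.0 and 82.5 units in siCTRL-treated cells. The third GDAP1 probe had 77.9 and 80.9 units in siPATZ1-treated cells, against 69.7 and 73.4 units in siCTRL-treated cells, a log2 difference of 0.07. For SMDT1 and KCNIP3 the differences of all further probes were small. The second SMDT1 probe had 87.9 and 93.5 units in siPATZ1-treated cells, against 84.3 and 96.9 units in siCTRL-treated cells, and both further KCNIP3 probes had log2 differences of 0.10 and 0.04. Which transcripts of these genes each probe reads was not examined.

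**Figure D3:**
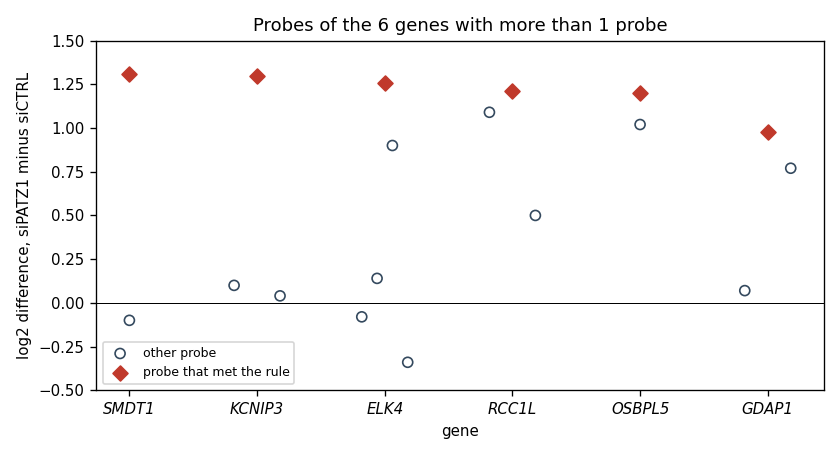
Log2 difference between siPATZ1 and siCTRL arrays (vertical axis) for every probe of the 6 genes with more than 1 probe. Filled diamonds are the probes that met the rule and open circles the other 12 probes, which lie from -0.34 to 1.09; those of SMDT1 and KCNIP3 lie near 0, as do 1 of GDAP1 and 2 of ELK4.

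The functional partners and relatives of the 19 genes were tested where they were detected, with limma and Benjamini-Hochberg adjustment over 9435 genes. In that test the share of all genes that rose in siPATZ1-treated cells was 7.76%, and the share that fell was 6.94%. A list of 37 relatives was drawn up with the arrays known, and 22 of them were detected and tested. Of these, 2 were higher and 2 lower at an adjusted p below 0.05, a share near the background, and the median log2 difference was 0.12, against 0.00 for all genes tested.

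Among lipid-related relatives, TLCD5, another TLC-domain gene, had 743 and 789 units in siPATZ1-treated cells, against 401 and 476 units in siCTRL-treated cells, a log2 difference of 0.71 (SE 0.14, limma adjusted p = 0.0199). OSBP, the founding oxysterol-binding protein, had 2374 and 2647 units in siPATZ1-treated cells, against 1683 and 1529 units in siCTRL-treated cells, a log2 difference of 0.47 (SE 0.12, limma adjusted p = 0.0383). Both genes rose in this test. OSBPL8, which like OSBPL5 works at contacts of the endoplasmic reticulum with the plasma membrane, fell by 0.49 on the log2 scale (SE 0.13, limma adjusted p = 0.0415), with 464 and 440.3 units in siPATZ1-treated cells, against 516 and 553 units in siCTRL-treated cells. A second OSBPL8 probe had a log2 difference of 0.15. OSBPL3 had a log2 difference of -0.54 (SE 0.17, limma adjusted p = 0.0764), which did not pass, although it did with the arrays of the same number as a block (limma adjusted p = 0.0491) and without siCTRL array 2 (-0.76, limma adjusted p = 0.0144).

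For the volume-regulated anion channel, LRRC8B fell by 0.50 on the log2 scale (SE 0.14, limma adjusted p = 0.0461), with 679.7 and 748 units in siPATZ1-treated cells, against 943 and 778 units in siCTRL-treated cells. A second LRRC8B probe, undetected on all 4 arrays, had a log2 difference of 0.21. LRRC8A, the subunit these channels require, had a log2 difference of 0.13 (SE 0.13, limma adjusted p = 0.543). LRRC8D and LRRC8E, detected on all 4 arrays, did not pass the test either, although a second LRRC8E probe, not the one tested, had 156 and 181 units in siPATZ1-treated cells, against 208 and 211 units in siCTRL-treated cells. LRRC8A, LRRC8B, LRRC8D and LRRC8E were all detected on both siCTRL arrays and so could not have met the rule. With the arrays of the same number as a block, OSBP, OSBPL8 and LRRC8B no longer passed (limma adjusted p = 0.0669, 0.0698 and 0.0709). Without siPATZ1 array 1 or without siPATZ1 array 2 none of the 4 called relatives passed, TLCD5 having a limma adjusted p of 0.0939 and 0.118.

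For the mitochondrial calcium uniporter, 4 partners of SMDT1 were tested and none passed. MCU, the pore, had 381 and 363 units in siPATZ1-treated cells, against 290.4 and 297 units in siCTRL-treated cells, a log2 difference of 0.21 (SE 0.13, limma adjusted p = 0.286). MICU2, a calcium-sensing gatekeeper, had the same log2 difference of 0.21 (SE 0.12, adjusted p = 0.287), and MCUB and MCUR1 had -0.02 and 0.15. The tested partners thus had differences between -0.02 and 0.21, while MICU3 was undetected on all 4 arrays.

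For insulin-like growth factor signalling, no probe of the ligands, IGF1 and IGF2, had a detection p-value below 0.01 on any array. INSR, the insulin receptor, did not meet that limit either, with 95.2 and 114 units in siPATZ1-treated cells, against 97.1 and 137 units in siCTRL-treated cells. Its detection p-value on siCTRL array 2 was 0.013. IRS1, an adaptor of both receptors, had 119.8 and 122 units in siPATZ1-treated cells, against 83.6 and 94.2 units in siCTRL-treated cells. Its detection p-values on the siPATZ1 arrays, 0.0325 and 0.0364, lay between the limits for detected and undetected probes. IRS2 and IGF2R, the clearance receptor of IGF2, were detected on all 4 arrays with log2 differences of -0.04 (SE 0.18, limma adjusted p = 0.905) and -0.03 (SE 0.12, limma adjusted p = 0.877). ELK1, a second ternary complex factor, and SRF had log2 differences of 0.23 (SE 0.12, limma adjusted p = 0.252) and 0.25 (SE 0.15, limma adjusted p = 0.281), and neither passed.

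**Figure D4:**
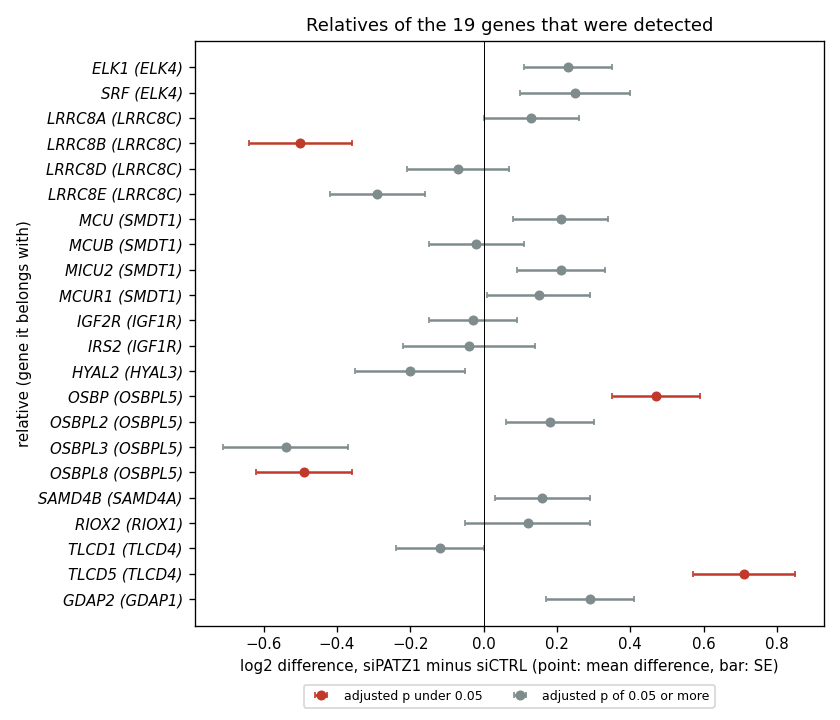
Log2 difference between siPATZ1 and siCTRL arrays (horizontal axis; points are differences of means of 2 arrays each, bars the SE from limma) for the 22 relatives that were detected, with the gene each belongs with in brackets. TLCD5 and OSBP lie above 0 and OSBPL8 and LRRC8B below 0 at an adjusted p below 0.05, and the other 18 did not pass.

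The rule was met by 19 of 10489 genes without a ZNF symbol, or 0.181%. These 10489 genes had no probe with a detection p-value below 0.01 on either siCTRL array, and are the genes called undetected in this paragraph. Tissue, stress, death and cell cycle lists, 26 in all, held none of the 19. At that rate lists of this size would hold few or none, since the secreted liver protein list had 20 undetected genes, the neuronal and synaptic list 103 and the germline and testis list 143, so nothing is read from it. The median log2 difference of the undetected genes of these 3 lists was 0.01, 0.02 and -0.01, against 0.00 over all 10489. Families defined by symbol held few members. The transcription factor families held ELK4 and ZSCAN29 among 219 undetected genes, and their symbol rule did not take in TFAP4. The symbol rule for ion channel genes took in KCNIP3, a modulator of channels, among 236. The channel subunit LRRC8C was placed by symbol, with CCDC89, among 252 undetected genes of axoneme and cilium families. The small RNA genes held SNORA12 and SNORD125 among 818.

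The promoters of the genes are shown because PATZ1 is known to bind G-rich DNA. RefSeq (GRCh38.p14) gave windows for 13 of the 19 genes, 18 windows in all, and the 250 bases upstream of the gene start were searched on both strands for GGGGAGG and GGGAGGG, G-rich strings chosen here, which overlap in GGGGAGGG. At least 1 of these was found for 6 of the 13 genes, or 46.2%, against 35.4% of all 27305 genes with a window, and in 7 of 18 windows, or 38.9%, against 32.4% of all 35116 windows. CCDC89, ELK4, HYAL3, LRRC8C, SAMD4A and SMDT1 held a match, while IGF1R, KCNIP3, KIAA1958, OSBPL5, RCC1L, TLCD4 and ZSCAN29 held none in these windows. The windows were rich in G and C, with a median of 68.4% against 58.0% over all windows. ELK4 and SAMD4A, the brightest genes in siPATZ1-treated cells, and LRRC8C, the dimmest and the one with a match at 3 places in a single direction, are printed 5′ to 3′ on the gene's strand with matches to either string, on either strand, in capitals. The ELK4 window is chr1:205632012-205632261 (minus strand), the SAMD4A window chr14:54567362-54567611 (plus strand, the 1 of 3 SAMD4A windows with a match) and the LRRC8C window chr1:89632870-89633119 (plus strand).
ELK4: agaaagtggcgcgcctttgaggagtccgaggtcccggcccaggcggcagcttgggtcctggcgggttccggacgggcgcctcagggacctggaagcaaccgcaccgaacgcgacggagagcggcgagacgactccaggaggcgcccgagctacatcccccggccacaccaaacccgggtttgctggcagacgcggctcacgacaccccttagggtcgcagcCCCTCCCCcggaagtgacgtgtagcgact
SAMD4A: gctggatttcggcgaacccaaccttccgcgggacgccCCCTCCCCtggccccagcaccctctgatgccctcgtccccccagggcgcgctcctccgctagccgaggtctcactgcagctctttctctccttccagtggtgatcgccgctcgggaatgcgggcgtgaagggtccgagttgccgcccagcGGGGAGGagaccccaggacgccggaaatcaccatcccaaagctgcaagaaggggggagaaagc
LRRC8C: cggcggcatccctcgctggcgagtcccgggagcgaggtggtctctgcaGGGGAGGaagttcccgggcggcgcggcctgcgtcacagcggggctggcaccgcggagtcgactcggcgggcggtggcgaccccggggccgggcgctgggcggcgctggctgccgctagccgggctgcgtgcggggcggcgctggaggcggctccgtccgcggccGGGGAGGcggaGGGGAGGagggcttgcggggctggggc
A match is only the presence of these letters, and whether PATZ1 binds there was not examined on these arrays.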

How the data were processed

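Per the labels, 4 HumanHT-12 v4 BeadChips were hybridised, 2 of siPATZ1-treated and 2 of siCTRL-treated HepG2 cells. The authors deposited probe intensity without normalization, with undetected probes well above 0, and a detection p-value for each probe. They also deposited a table of intensity multiplied by 1 factor per array (0.991 and 0.934 for siPATZ1, 1.03 and 1.05 for siCTRL), used only as an alternative. The submitters' processing notes name GenomeStudio, and the sources used here do not state how background was handled.

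The detection rule was read on the unscaled table. Probes were named from the platform annotation, where 30112 had 1 symbol, 8 several and 17203 none here. Differences used log2 values from neqc (limma 3.58.1, R 4.3.3; normexp from detection p-values, offset 16, quantile normalisation). Relatives and host genes were tested with lmFit and eBayes on 9435 genes, each by its brightest probe detected below 0.01 on both arrays of a group. This test was added after the data had been seen and was tested on simulated data. The members, lists and relatives were chosen with earlier results of these data known.

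Genes were to be named if among the 12 highest siPATZ1 signals or the 12 largest differences, next to a limit, or used to check the labels. The rest of the 19 genes, the relatives and the genes set aside were named after their values were seen. The precision is limited by the number of arrays. Alternatives were other detection limits, conditions, normalisations and leaving out each array.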

Additional observations from a re-analysis of the deposited data

How the results depend on the processing

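The number of genes depended strongly on the limits, which 19 genes passed. It was 0 with a siPATZ1 detection p-value below 0.001 and 183 below 0.05, and 358 with a siCTRL detection p-value of 0.01 or more and 6 with 0.1 or more. The 6 were IGF1R, KCNIP3, LRRC8C, RIOX1, SMDT1 and SNORA12. Without the condition on other probes it was 32, and with that condition set at 0.05 it was 16, which drops ELK4, OSBPL5 and RCC1L. With ZNF symbols kept it was 20. Reading the rule on 3 arrays gave between 35 and 62 genes (35 without siPATZ1 array 1, 62 without siPATZ1 array 2, 46 without siCTRL array 1 and 56 without siCTRL array 2), all 19 among them in each case, as fewer conditions require. The median log2 difference of the same 19 genes, 1.19, was 0.64 with no background correction, 0.73 with an offset of 50, 0.62 in the deposited scaled intensities and 0.93 as a mean over all probes of a gene, and between 1.08 and 1.25 when 1 array was left out. At least 14 of the 19 genes were 1.4-fold higher under each alternative run, 14 with no background correction or in the scaled intensities. Median scaling moved the median of all genes tested by 0.12 on the log2 scale. OSBPL8 and LRRC8B had log2 differences of -0.34 and -0.35 under it and did not pass (limma adjusted p = 0.104 and 0.121). OSBP and OSBPL8 also failed without siCTRL array 2 (limma adjusted p = 0.0545 and 0.0674) and LRRC8B without siCTRL array 1 (limma adjusted p = 0.0955). Over all genes, the replicate block gave 582 higher and 487 lower genes, against 732 and 655 without it. Leaving out siPATZ1 array 1 gave 157 and 124, and leaving out siPATZ1 array 2 gave 158 and 130. Deviations of arrays of the same number had a correlation of -0.05, and the labels give them only a number in common. With 2 arrays per group and signals near background, differences among the 19 genes themselves were not tested.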
